A study of Mus musculus with 10 samples.

Results

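The respiratory chain and the ATP synthase of mouse skeletal muscle were followed here through the nuclear genes that encode their subunits. The genes were taken by symbol, as all those named Ndufa, Ndufb, Ndufc, Ndufs or Ndufv with a number, Sdha to Sdhd, Uqcr, Cyc1, Cycs, Cox4 to Cox8 and Atp5. Of the 19938 genes with a probe set of their own on the array, 83 matched. Complex I held 33 of them, complex II 4, complex III 9, cytochrome c 1, complex IV 17 and complex V 17, with Ndufa4 counted in complex IV. The other 2, Ndufa4l2 and Cox7a2l, were kept apart because they are relatives of subunits rather than constant parts of a complex. Cox7c, Ndufb4, Ndufb4b and Ndufs5-ps matched the same names but shared probe sets with other symbols, and were not analysed here.

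RNA was hybridised to 10 Affymetrix Mouse Gene 1.0 ST arrays, and all values are log2 signals. In tibialis anterior (TA), a fast muscle, 10 µg of a plasmid expressing an shRNA against the long intergenic RNA linc-MYH (shlinc-MYH, 2 arrays) or a control vector (2 arrays) was electroporated into mice of 8 weeks and of the strain written C56BL6N, and the fibres that showed GFP were dissected 2 weeks later. The methods describe the control shRNA as one against LacZ given to the opposite leg. In gastrocnemius, muscles of cSix1 KO mice (3 arrays) and wild type controls (3 arrays), labelled with the same strain, were compared at 8 weeks; these are conditional knockouts with Cre under the human skeletal actin promoter, which acts in the muscle fibre but not in the other cells of the muscle. Tissue and manipulation changed together, so the comparisons are given one by one. The targeted genes were not analysed here, so the labels were not checked on them. The methods say of the electroporations that the muscles of a condition came from different mice. For the gastrocnemius arrays the sources used here do not say whether they came from separate animals, and their p-values measure only the spread between these arrays.

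The respiratory chain passes electrons from NADH through complex I and from succinate through complex II to ubiquinone, then through complex III, cytochrome c and complex IV to oxygen, and complex V uses the proton gradient built on the way to make ATP. Slow and fast oxidative fibres hold more mitochondria than fast glycolytic fibres, and the chain is therefore often read as a measure of oxidative capacity. In complex IV some subunits exist as a form found in heart and skeletal muscle (Cox6a2, Cox7a1, Cox8b) and a form found in most tissues (Cox6a1, Cox7a2, Cox8a). The subunit genes are known targets of the nuclear respiratory factor NRF-1, of GABP, an ETS family factor, and of the oestrogen-related receptors, with PGC-1α as their coactivator.

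The promoters of an isoform pair are shown because the pair is compared below, together with the Cox6a1 promoter, which held the NRF-1 letters. Each run is 300 bases, 250 before and 50 after the start in RefSeq (GRCm38.p6), read 5′ to 3′ on the strand of the gene. Capitals mark the letters searched on both strands, which are a palindrome of 10 letters for NRF-1 (the first capitals of the Cox6a1 run), CCGGAAG for GABP (CTTCCGG on the other strand), AAGGTCA for the oestrogen-related receptors, CAGCTG for an E-box and TATAAA for a TATA box.
Cox8b (muscle form, chr7:140900397-140900696, minus strand): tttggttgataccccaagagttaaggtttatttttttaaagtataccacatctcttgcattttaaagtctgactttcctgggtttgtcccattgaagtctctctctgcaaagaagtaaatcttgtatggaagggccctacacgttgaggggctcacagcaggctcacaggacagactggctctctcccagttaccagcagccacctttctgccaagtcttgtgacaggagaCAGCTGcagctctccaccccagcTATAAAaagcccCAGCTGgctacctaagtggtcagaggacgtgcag
Cox8a (ubiquitous form, chr19:7217567-7217866, minus strand): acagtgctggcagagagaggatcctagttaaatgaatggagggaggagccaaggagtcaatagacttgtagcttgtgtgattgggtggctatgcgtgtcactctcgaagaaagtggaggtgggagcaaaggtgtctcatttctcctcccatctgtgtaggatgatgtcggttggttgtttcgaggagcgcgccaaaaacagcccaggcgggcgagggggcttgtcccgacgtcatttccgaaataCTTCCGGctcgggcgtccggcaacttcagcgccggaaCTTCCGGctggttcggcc
Cox6a1 (ubiquitous form, chr5:115348909-115349208, minus strand): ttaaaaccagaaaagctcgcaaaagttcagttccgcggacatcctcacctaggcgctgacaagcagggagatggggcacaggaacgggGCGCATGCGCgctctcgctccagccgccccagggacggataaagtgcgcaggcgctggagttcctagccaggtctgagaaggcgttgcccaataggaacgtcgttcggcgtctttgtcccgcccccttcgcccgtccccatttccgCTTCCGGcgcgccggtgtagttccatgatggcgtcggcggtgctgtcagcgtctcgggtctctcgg

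Cox8b carried CAGCTG at 2 places and 1 TATAAA, Cox8a carried CTTCCGG at 2 places, and Cox6a1 carried 1 NRF-1 and 1 GABP sequence. The windows of Cox7a1, Cox7a2, Uqcrfs1, Ndufb5 and Ndufb8 held none of the letters searched. Promoter windows were at hand for 67 of the 83 genes, 72 windows in all. The NRF-1 letters were in 5 of them (6.94%) against 0.971% of all 32851 promoter windows, the GABP letters in 17 (23.6%) against 8.86%, and the oestrogen-related receptor letters in 7 (9.72%) against 4.72%. E-box letters were in 6 (8.33%) against 16.3%, and the TATA letters in 9 (12.5%) against 13.6%. These are matches of letters, counted as a description.

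The genes gave strong signals. Ranked by control signal, 76 of the 83 in TA and 66 in gastrocnemius reached percentile 90 of the genes on the array, while 5 stayed below percentile 60 in both muscles. The latter were Cox4i2, Cox6b2, Cox7b2, Cox8c and Ndufa4l2, which are known from lung, testis or hypoxic cells. Their probe sets read between 2.88 and 7.70 on the log2 scale over all arrays, and a small difference there is less firm than in the bright genes. The muscle fibre markers (Acta1, Ckm, Mylpf, Tnnt3, Pvalb and Myh4) were bright in both tissues, their mean lying between 12.23 and 13.55 on every array.

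The first comparison asked whether loss of linc-MYH in TA fibres altered the subunit genes. None of the 83 passed limma's test at an adjusted p of 0.05, where 3 of all 19938 genes were higher (0.015%) and 0 lower. At an unadjusted p under 0.05, 1 gene was higher and 5 lower, against 4.27% and 4.37% of all genes. The median log2 difference of the 83 was -0.056, against -0.025 over all genes, and 52 of 83 (62.7%) lay below 0, against 56.2%. Centred on the array median, the same counts were 44 of 83 and a median of -0.022. Centring moves all genes of an array by the same amount, so these values cannot be set against the uncentred values of all genes. The shlinc-MYH and control arrays did not overlap for 12 genes that were higher and 30 that were lower, against 16.3% and 23% of all genes. The 95% interval of the difference lay within 1.5-fold in either direction for 78 of the 83 genes and within 2-fold for all 83. The 1994 genes with the highest mean signal were also counted, a set chosen after the values were seen. Their median in TA was 0.0016 and 49.5% lay below 0. Of them, 164 were higher and 152 lower at an unadjusted p under 0.05. The groups did not overlap for 489 of them that were higher and 467 that were lower.

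In complex I, 20 of 33 genes lay below 0 in TA, with a median of -0.059. Ndufs8, an iron-sulphur subunit of the arm that reaches into the matrix, read 8.24 and 8.31 in the controls and 7.67 and 7.92 with shlinc-MYH. Both treated arrays were below both controls, by -0.48 ± 0.13 (SE, limma adjusted p = 0.471) or 0.719-fold. Ndufv3, an accessory subunit of the NADH-oxidising module, read 9.72 and 9.71 against 9.41 and 9.33 with shlinc-MYH (difference -0.34 ± 0.12, SE). Ndufs7, another iron-sulphur subunit, read 8.62 on both control arrays and 8.33 and 8.31 with shlinc-MYH. Ndufa3, an accessory subunit of the membrane arm, read 9.76 and 9.68 against 9.42 and 9.44. For each of these 4 genes the groups stood apart and the unadjusted p was under 0.05, and none passed after adjustment. At the other end, Ndufb3, also of the membrane arm, differed by 0.21 ± 0.12 (SE), and Ndufs5 by 0.11 ± 0.13 (SE).

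**Figure D1:**
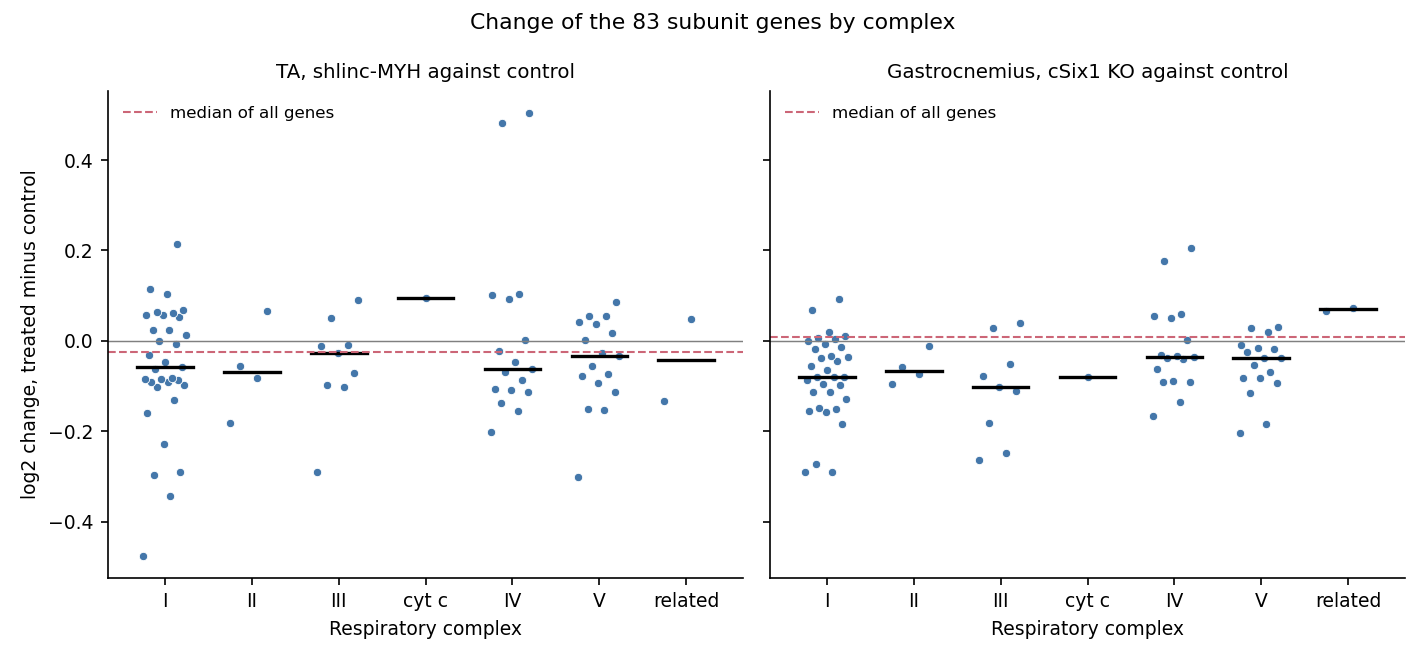
Log2 difference between treated and control arrays (vertical axis) of the 83 subunit genes, grouped by complex (horizontal axis), in TA (left, 2 against 2 arrays) and gastrocnemius (right, 3 against 3 arrays). Each point is a gene, black bars are group medians and the dashed line is the median of all 19938 genes; points of the related group are Ndufa4l2 and Cox7a2l, and in both panels Cox8a and Cox6a1 are the highest.

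The 4 subunits of complex II, which is also the succinate dehydrogenase of the citric acid cycle, differed little between the TA groups. Sdha, the flavoprotein, differed by -0.18 ± 0.12 (SE), reading 10.39 and 10.41 in controls and 10.18 and 10.26 with shlinc-MYH. The iron-sulphur subunit Sdhb differed by -0.083, and the membrane anchors Sdhc and Sdhd by 0.067 and -0.057. In complex III, Uqcrc1, a core protein, read 9.67 and 9.70 in controls and 9.39 and 9.41 with shlinc-MYH (difference -0.29 ± 0.11, SE, limma adjusted p = 0.561). Its partner Uqcrc2 differed by -0.098 and the small subunit Uqcrq by -0.10, while the Rieske iron-sulphur protein Uqcrfs1 and the hinge protein Uqcrh differed by 0.090 and 0.051. Cytochrome c, Cycs, differed by 0.095 ± 0.13 (SE). The median of complex III was -0.027, with 7 of 9 genes below 0.

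Complex IV held the only genes more than 0.4 above the controls. Cox8a, the ubiquitous form of the smallest subunit, read 7.03 and 7.16 in controls and 7.49 and 7.71 with shlinc-MYH. The difference was 0.50 ± 0.14 (SE), or 1.42-fold, with a 95% interval from 0.18 to 0.83 and a limma adjusted p of 0.471. Cox6a1, the ubiquitous form of another subunit, read 9.65 and 9.70 with shlinc-MYH but 9.49 and 8.89 in the controls, so that its difference of 0.48 ± 0.20 (SE) was 0.18 without the second control array and 0.78 without the first. The other 15 genes of complex IV lay between -0.20 (Cox7b2, one of the dim probe sets) and 0.10. In complex V, 10 of 17 genes lay below 0, with a median of -0.033. Atp5g1, Atp5g2 and Atp5g3 encode the same mature protein, the subunit of the rotating c ring. They differed by -0.30 ± 0.13, -0.15 ± 0.15 and 0.037 ± 0.12 (SE), and the groups stood apart only for Atp5g1, which read 10.54 and 10.73 in controls and 10.25 and 10.42 with shlinc-MYH. The highest of complex V were Atp5pb, of the peripheral stalk, at 0.085 and the small subunit Atp5md at 0.055.

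The second comparison asked the same of cSix1 KO muscle. In gastrocnemius of cSix1 KO mice 181 genes were higher (0.908% of 19938) and 166 lower (0.833%) by limma, and none of the 83 subunit genes was among them. At an unadjusted p under 0.05, 0 were higher and 9 lower, against 8.44% and 6.5% of all genes. The median log2 difference was -0.057, against 0.0080 over all genes, and 64 of 83 genes (77.1%) lay below 0, against 47.2%. The groups did not overlap for 1 gene that was higher and 19 that were lower, against 11% and 9.85% of all genes. Intervals of 82 genes lay within 1.5-fold, the exception being Ndufs5, and all 83 within 2-fold. The same 1994 genes in the top 10% by mean signal, chosen after the values were seen, were counted here too. Their median was -0.049 and 61.2% lay below 0. Of them, 198 were higher and 436 lower at an unadjusted p under 0.05. The groups did not overlap for 267 of them that were higher and 622 that were lower.

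The shift was not shared evenly by the cSix1 KO arrays. Relative to the control mean of each gene, the median of the 83 genes was 0.022, 0.018 and -0.042 on the control arrays and -0.12, -0.056 and -0.013 on the cSix1 KO arrays, so that the third knockout array lay above the third control. The first knockout array was the lowest of its group for 63 of the 83 genes. Among the controls the third array was the lowest for 53 of the 83, so controls were uneven as well. Without the first knockout array, the median difference was -0.026 and 54 of 83 genes lay below 0. In TA the same medians were -0.029 and 0.029 in controls and -0.043 and -0.036 with shlinc-MYH.

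**Figure D2:**
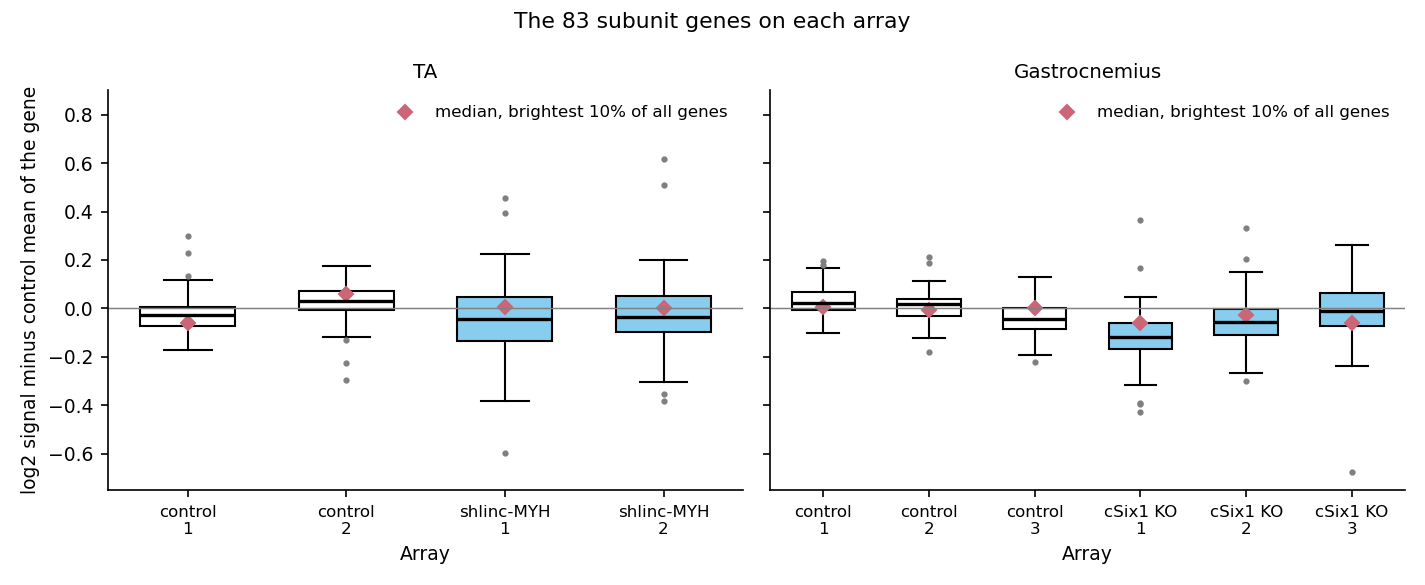
Log2 signal of the 83 subunit genes on each array minus the control mean of the same gene (vertical axis), for the TA (left) and gastrocnemius (right) arrays. Boxes span the quartiles with the median as a bar, whiskers reach at most 1.5 times the box and points lie beyond; diamonds are the medians of the brightest 10% of all genes, and the first cSix1 KO array has the lowest median, -0.12.

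Complex I had 27 of its 33 genes below 0 in gastrocnemius, with a median of -0.079. Ndufb8, an accessory subunit of the membrane arm, read 10.53, 10.40 and 10.37 in controls and 10.04, 10.18 and 10.21 in cSix1 KO. Every knockout array was below every control, by -0.29 ± 0.078 (SE, limma adjusted p = 0.125), or 0.818-fold. Ndufb5, of the same arm, read 11.78, 11.89 and 11.85 against 11.42, 11.54 and 11.70 (difference -0.29 ± 0.086, SE, limma adjusted p = 0.161). The accessory subunit Ndufs6 differed by -0.18 ± 0.073 (SE) and also stood apart. Ndufs5 had a difference of similar size, -0.27 ± 0.18 (SE), that rested on the third knockout array at 8.40, while the other knockouts read 8.91 and 9.10 and the controls 9.27, 8.90 and 9.06. The highest of complex I were Ndufv3 and Ndufb3, at 0.093 and 0.069. Ndufs8, the lowest gene of TA, differed by -0.11 ± 0.090 (SE) with overlapping groups.

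All 4 genes of complex II lay slightly below 0, with Sdha at -0.058, Sdhb at -0.074, Sdhc at -0.011 and Sdhd at -0.094, and each with overlapping groups. Complex III had the lowest median, -0.10, and 7 of 9 genes below 0. The Rieske protein Uqcrfs1, through which complex III takes electrons from ubiquinol, had the lowest adjusted p of the 83 genes. It read 10.25, 10.22 and 10.29 in controls and 9.94, 10.02 and 10.02 in cSix1 KO. The groups stood well apart, by -0.26 ± 0.064 (SE, 95% interval -0.41 to -0.12, limma adjusted p = 0.0960), or 0.833-fold. Uqcr10 and Uqcrq, small subunits, differed by -0.25 ± 0.10 and -0.18 ± 0.070 (SE), with groups that overlapped for Uqcr10 and stood apart for Uqcrq. The core proteins Uqcrc1 and Uqcrc2 differed by 0.028 and 0.040, so the subunits of this complex did not share 1 direction. Cycs differed by -0.079 ± 0.070 (SE).

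**Figure D3:**
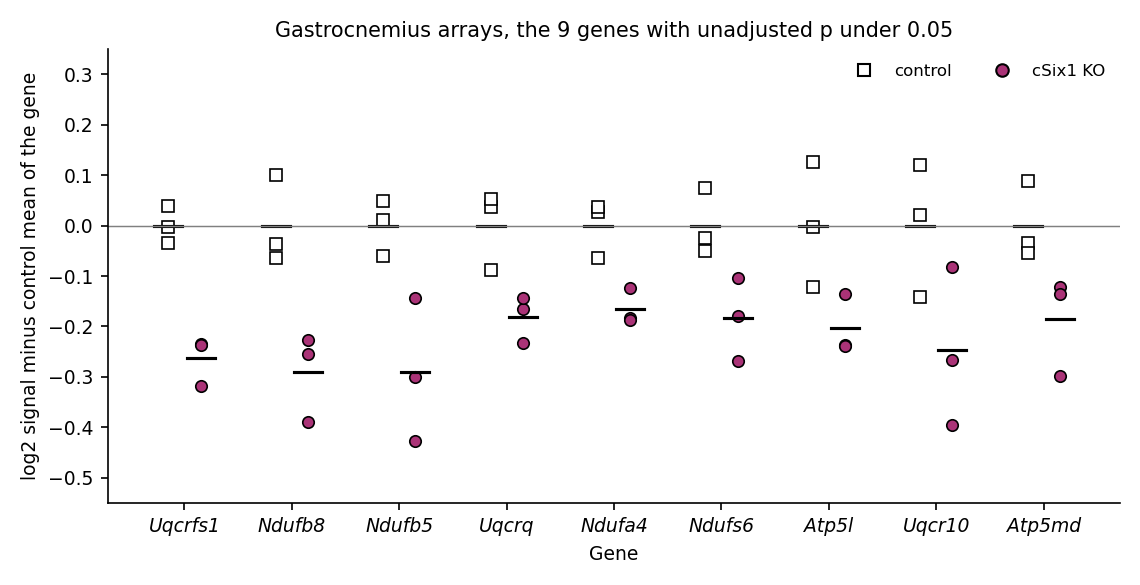
Log2 signal on each gastrocnemius array minus the control mean of the gene (vertical axis) for the 9 subunit genes with an unadjusted p under 0.05 (horizontal axis), chosen by that value. Squares are the 3 controls, circles the 3 cSix1 KO arrays and bars the group means; the groups overlap for Uqcr10, and no gene passed the test after adjustment.

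Of complex IV, 11 of 17 genes lay below 0, with a median of -0.036. The lowest was Ndufa4, long counted with complex I and now with complex IV, which read 11.51, 11.52 and 11.42 in controls and 11.30, 11.30 and 11.36 in cSix1 KO (difference -0.17 ± 0.065, SE, limma adjusted p = 0.281). The highest were again Cox6a1, at 0.21 ± 0.13 (SE), and Cox8a, at 0.18 ± 0.079 (SE). Cox8a read 9.99, 9.95 and 9.77 in controls and 10.07, 10.03 and 10.15 in cSix1 KO, and it was the only gene of the 83 with all knockout arrays above all controls. For Cox6a1 the knockout arrays read 9.19, 9.15 and 8.74 and overlapped the controls, whose lower arrays read 8.74 and 8.72. In complex V, 14 of 17 genes lay below 0, with a median of -0.038. Atp5l, subunit g of the membrane part, differed by -0.20 ± 0.081 (SE), and its 6 probe sets, which may read processed copies as well as the gene, gave differences from -0.20 to -0.18. Atp5md differed by -0.18 ± 0.078 (SE). The c ring genes Atp5g1, Atp5g2 and Atp5g3 differed by -0.017, 0.031 and -0.038, and Atp5j by 0.028.

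Muscle and ubiquitous isoforms of complex IV were compared within each array, as the log2 signal of the muscle form minus that of the ubiquitous form, set against the control mean of the same quantity. No level of a gene was read against another. For Cox8b against Cox8a the controls of TA lay at 0.066 and -0.066 and the shlinc-MYH arrays at -0.52 and -0.66, a shift of -0.59. In gastrocnemius the controls lay at -0.084, -0.034 and 0.12 and the cSix1 KO arrays at -0.37, -0.26 and -0.31, a shift of -0.31. The groups did not overlap in either muscle. Of the genes themselves, Cox8b differed by -0.086 ± 0.12 (SE) in TA and -0.14 ± 0.065 (SE) in gastrocnemius, and Cox8a by the larger values given above.

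For Cox6a2 against Cox6a1 the shift was -0.62 in TA, where the shlinc-MYH arrays at -0.58 and -0.66 lay below controls at -0.17 and 0.17, and -0.24 in gastrocnemius, where the third cSix1 KO array, at 0.13, lay above every control. Cox6a2 itself differed by -0.14 and -0.031. For Cox7a1 against Cox7a2 the shift was -0.26 in TA, where the shlinc-MYH arrays at -0.41 and -0.10 lay below controls at -0.038 and 0.038, and 0.11 in gastrocnemius, with overlapping groups. Without the first shlinc-MYH array the TA shift was -0.10, and without the second -0.41. Cox7a1 differed by -0.16 in TA and 0.050 in gastrocnemius, and Cox7a2 by 0.10 and -0.062. The exact two-sided permutation p over arrays was 0.333 for each pair in TA, the smallest that 2 against 2 arrays allow. In gastrocnemius it was 0.1 for Cox8b, the smallest that 3 against 3 allow, 0.4 for Cox6a2 and 0.6 for Cox7a1, or 0.3, 0.6 and 0.6 after adjustment over the 3 pairs. These designs cannot reach 0.05.

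**Figure D4:**
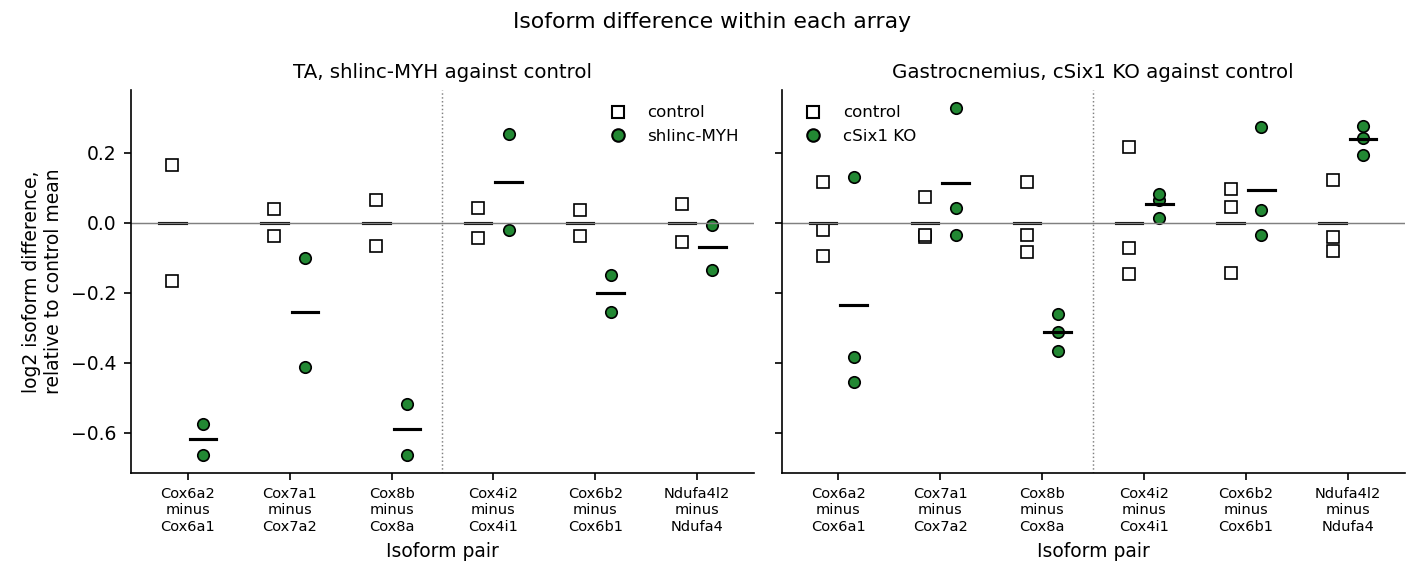
Difference in log2 signal between the 2 isoforms named below each position, within each array and relative to its control mean (vertical axis), in TA (left) and gastrocnemius (right). Squares are controls, circles treated arrays and bars group means; the 3 muscle pairs stand left of the dotted line, where Cox8b minus Cox8a is below the controls on every treated array of both muscles.

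The other 3 pairs set a form of restricted tissues against the common one. Ndufa4l2, a hypoxia-induced relative, against Ndufa4 shifted by 0.24 in gastrocnemius, where every cSix1 KO array was above every control (exact permutation p = 0.1, adjusted over 3 pairs 0.3), and by -0.070 in TA with overlapping groups. Most of the shift in gastrocnemius lay in Ndufa4, since Ndufa4l2 itself differed by 0.074. Cox6b2, the testis form, against Cox6b1 shifted by -0.20 in TA, where the groups stood apart, and by 0.093 in gastrocnemius. Cox4i2, the lung form, against Cox4i1 shifted by 0.12 and 0.054, with overlapping groups in both. Cox7a2l, which joins complexes III and IV into larger assemblies, differed by 0.049 in TA and 0.065 in gastrocnemius on its brighter probe set. Its other probe set gave -0.051 and -0.045, so the sign depended on the probe set.

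Whether the comparisons differed was tested on all 10 arrays as the gastrocnemius difference minus the TA difference. Of all genes 29 (0.145%) passed, 14 of them higher and 15 lower in that contrast, and 0 of the 83 did. The lowest adjusted p was that of Uqcrfs1, at 0.276, for a contrast of -0.35 ± 0.12 (SE). Ndufv3, at 0.44 ± 0.15 (SE), and Ndufs8, at 0.36 ± 0.16 (SE), had adjusted p values of 0.296 and 0.383 by limma.

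Genes around the chain were counted from lists that hold no subunit. Of 42 assembly factors measured, 31 lay below 0 in gastrocnemius, with a median of -0.096, and 17 were lower at an unadjusted p under 0.05, where 47.2% and 6.5% of all genes did so. Timmdc1, which helps to build the membrane arm of complex I, passed the test, reading 9.90, 9.87 and 9.80 in controls and 9.30, 9.37 and 9.53 in cSix1 KO (difference -0.45 ± 0.079, SE, limma adjusted p = 0.0370). Ndufaf6 and Coa7, assembly factors of complexes I and IV, differed by -0.33 and -0.29 and did not pass. In TA 21 of 42 lay below 0, against 56.2% of all genes. Atpaf1, of the ATP synthase, and Ndufaf6 differed by -0.54 and -0.49, and the copper-linked factor Cox19 by 0.63, without passing. Another list held 17 genes of the citric acid cycle and of the pyruvate dehydrogenase complex (Pdha1, Pdhb, Dlat and Pdhx). Of these, 16 in gastrocnemius and 15 in TA lay below 0, against 47.2% and 56.2% of all genes. Their medians were -0.067 and -0.18, and none passed. The lowest were Pdhx (-0.18), Idh3a (-0.17) and Ogdh (-0.13) in gastrocnemius, and Dlst (-0.38), Pdha1 (-0.36) and Suclg1 (-0.29) in TA by the size of their test statistic.

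Of 28 carriers and membrane proteins of mitochondria, 20 lay below 0 in gastrocnemius and 22 in TA, against the same 47.2% and 56.2% of all genes. Gpd2, the mitochondrial glycerol-3-phosphate dehydrogenase that hands electrons from cytosolic glycolysis to ubiquinone, was the 1 that passed. It read 11.02, 11.24 and 10.93 in controls and 9.49, 9.61 and 9.37 in cSix1 KO, and fell to 0.336-fold (log2 difference -1.57 ± 0.10, SE, limma adjusted p = 0.00147). In TA it differed by -0.46 ± 0.24 (SE), with an adjusted p of 0.640. Chchd3, of the cristae, and the outer membrane channel Vdac1 differed by -0.26 and -0.20 in gastrocnemius, and in TA Mfn2 and Slc25a12 differed by -0.46 and -0.42 and the import receptor Tomm20 by 0.46, all without passing.

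Of 18 regulators measured, none passed in either muscle. Ppargc1a, which encodes PGC-1α, differed by -0.33 ± 0.16 (SE) in TA and -0.089 ± 0.14 (SE) in gastrocnemius, and Ppargc1b by 0.061 and -0.078. Esrra, the receptor ERRα, differed by 0.11 in TA and by -0.25 ± 0.090 (SE, limma adjusted p = 0.243) in gastrocnemius, where all cSix1 KO arrays lay below all controls. Nrf1 differed by -0.035 and -0.090, and Tfam, the mitochondrial transcription factor, by 0.40 ± 0.31 and -0.13 ± 0.11 (SE). Esrrg and Tfb2m differed by 0.38 and -0.23 in gastrocnemius, and Gabpb1 and Ppara by -0.28 and -0.28 in TA.

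Markers of fibre type and of other cells were read on the same arrays. In gastrocnemius 6 of 6 slow fibre markers were higher and passed, with a median of 1.11 and array means from 10.49 to 10.84 in controls and from 11.65 to 11.95 in cSix1 KO. The muscle fibre markers lay below 0 for 6 of 6, with array means from 13.49 to 13.55 and from 13.29 to 13.41, and 0 passed. This list holds Tnnt3, Pvalb and Myh4, which the paper counts as fast-type genes, so it does not follow fibre content alone. All 5 macrophage markers lay above 0, 1 of them (Mrc1) passing, with array means from 7.80 to 8.07 and from 8.37 to 9.03. The 4 fibroblast markers also lay above 0, with a median of 0.41, 3 of them at an unadjusted p under 0.05 and 0 passing, and array means from 10.57 to 11.00 in controls and from 11.00 to 11.23 in cSix1 KO. The 5 adipocyte markers lay above 0 with overlapping groups and 0 passed. In TA all 5 endothelial markers lay below 0, with array means from 7.48 to 7.54 in controls and from 6.44 to 7.15 with shlinc-MYH, and 0 passed. The array means of the slow fibre markers lay from 6.23 to 7.32 and from 7.81 to 8.10, with 5 of 6 above 0 and 0 passing. Tnnt1, Tnnc1 and Tnni1 differed by 2.76, 2.46 and 1.53, whereas Myh7 differed by -0.33 and Myl3 by 0.0020. The part of these cell types in the values of the subunit genes was not tested, and in such bulk tissue fewer cells of a type and less RNA per cell cannot be told apart.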

How the data were processed

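Total RNA of 4 TA and 6 gastrocnemius samples was hybridised to Affymetrix Mouse Gene 1.0 ST arrays. The deposited values are log2 signals that the authors made by RMA (background subtraction, quantile normalization and a summary per probe set). Differences between array signals may be compressed. The processing notes also name Partek, and no version or annotation release is given in the sources used here. The labels describe labelling from total RNA with an Affymetrix kit, and the methods an amplification with a NuGEN kit. The TA and gastrocnemius arrays have separate distributions, so no level was compared between them. The number of arrays limits the precision.

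Of 35556 probe sets, 21789 carried 1 symbol in the platform annotation, 1621 several and 12146 none. Probe sets with 1 symbol were kept and the brightest over all arrays was taken per gene, giving 19938 genes; 17 of the 83 subunit genes had several probe sets. All 83 matched RefSeq by Entrez number. Results on the targeted genes are not reported here. Groups were compared with limma 3.58.1 in R 4.3.3 (lmFit, eBayes) within each tissue, with Benjamini-Hochberg adjustment over all 19938 genes and a threshold of 0.05; scripts were tested on simulated data. Isoform differences within an array were compared by exact two-sided permutation over arrays. Promoters were searched with Python 3 scripts and plots drawn with matplotlib. Named genes were those that passed, the 2 highest and 2 lowest of each complex, all isoform pairs, the main regulators and up to 3 genes per further list by test statistic; Ndufs7, Ndufa3, Ndufs6, the assignment of Ndufa4, Ndufa4l2 and Cox7a2l and the promoter letters were chosen after values were seen. The genes and lists were chosen with earlier results of these data known. Same-numbered arrays were not treated as pairs. In gastrocnemius their deviations correlated by 0.22, -0.14 and 0.084. In TA the correlation was 0.19, a single independent value; the methods put the control plasmid into the opposite leg, but no source ties the array numbers to mice, so the pairing in TA is undecided. Alternatives were other normalization, centring, filters, probe set rules, priors, array weights, a fit of all arrays, a replicate block, the methods' t-test and leaving out each array.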

Additional observations from a re-analysis of the deposited data

How the results depend on the processing

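No subunit gene passed in TA, in gastrocnemius or in the contrast of both under the alternatives run with limma, with 1 exception: array weights gave 3 in gastrocnemius, all lower (Uqcrfs1, Ndufb8 and Ndufb5, adjusted p 0.0398, 0.0409 and 0.0480). The methods' t-test at its own threshold gave 9 in TA (1 higher, 8 lower) and 10 in gastrocnemius (all lower). Of all 19938 genes, that threshold gave 599 higher and 784 lower in TA, and 1286 and 1317 in gastrocnemius. After Benjamini-Hochberg adjustment it gave 0 subunit genes in both. The replicate block gave 0 subunit genes in both, and 5 higher and 0 lower genes of all in TA, and 119 and 67 in gastrocnemius. The median of the subunit genes in TA moved from -0.056 to -0.022 when arrays were centred on their medians, and lay between -0.079 and -0.015 with an array left out, the latter without the second control. In gastrocnemius it lay between -0.085 and -0.026 with an array left out, the latter without the first cSix1 KO array. Centring the gastrocnemius arrays put 70 of the 83 subunit genes below 0, against 64 without centring. As in TA, the centred count cannot be set against the uncentred share of all genes.

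Counts over all genes moved more. In gastrocnemius they ran from 32 higher and 19 lower without the second cSix1 KO array to 351 and 209 without the third, and were 564 and 425 with array weights, 261 and 282 with a trend and robust prior, 104 and 63, 74 and 57, 64 and 37 without the third, first and second control and 64 and 32 without the first cSix1 KO array. In TA they were 105 and 26 in a fit of all 10 arrays, 10 and 0 when centred and 0 with any array left out, where 1 group is a lone array assumed to vary like the other and a count of 0 says little. The contrast gave from 5 and 1 genes, without the second cSix1 KO array, to 39 and 61, without the second TA control.

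The sign of small differences turned, none of them called. With an array left out, gastrocnemius values lay from -0.043 to 0.014 for Atp5g1, -0.0042 to 0.054 for Atp5g2, -0.11 to 0.022 for Atp5g3, -0.085 to 0.028 for Cox4i2, -0.090 to 0.011 for Cox6a2, -0.050 to 0.12 for Cox6b2, -0.013 to 0.11 for Cox7a1, -0.051 to 0.021 for Sdhc, -0.040 to 0.081 for Uqcrc1 and -0.0075 to 0.084 for Uqcrc2. TA values lay from -0.33 to 0.021 for Atp5g2, -0.026 to 0.10 for Atp5g3, -0.038 to 0.15 for Atp5md, -0.15 to 0.16 for Cox4i2, -0.17 to 0.053 for Sdhd and -0.025 to 0.13 for Uqcrh. Array weights gave -0.051 for Cox6b2, 0.0016 for Cox7a2 and -0.0038 for Uqcrc1, and quantile normalization -0.0020 for Uqcrc2, all in gastrocnemius. The cause was not tested. Lower signals limit what can be read for Cox4i2, Cox6b2, Cox7b2, Cox8c and Ndufa4l2. Of these, Cox7b2 was the nearest to the floor, at percentile 7.2 in TA controls and 4.7 in gastrocnemius controls.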
